A study of Mus musculus with 8 samples.

Results

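Pericytes made up 272 of the 41106 annotated cells (0.662%) in single-cell libraries from the lungs of 8 mice. They were the cells that the authors had labelled Pericyte, 1 of 34 labels in the deposited cell table, and all of them came from a single cluster (number 27) that held no cell of another label. The animals were C57BL/6 Sftpc-CreERT2-mTmG mice, in which tamoxifen given ahead of the exposure switches the reporter from tdTomato to eGFP in cells with an active Sftpc promoter, chiefly alveolar type II cells. Of the 8 mice, 4 had long-term exposure to cigarette smoke (CS) and 4 breathed room air (RA). All carried the reporter and had received tamoxifen, so the RA mice were controls for the smoke alone. Lungs were perfused and digested to single cells, cells with and without the leukocyte antigen CD45 were remixed at a set ratio, and libraries were made with the 10x Genomics 3' kit, 1 library per mouse. Shares of all cells are therefore not shares in the tissue.

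Pericytes are mural cells that lie along capillaries and share a basement membrane with the endothelium. Endothelial cells secrete PDGF-B, which holds pericytes at the vessel through the receptor encoded by Pdgfrb, and Notch3 signalling from the endothelium maintains them. In the lung they sit in the alveolar wall. They are the capillary counterpart of the smooth muscle cells around larger vessels and airways, and they answer to endothelin, angiotensin and nitric oxide.

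The CS mice C2, C5, D2 and D5 (replicates 1 to 4) gave 3, 10, 10 and 22 pericytes. The RA mice F1, F3, M1 and M3 (replicates 1 to 4) gave 126, 84, 13 and 4. A pericyte held a median of 3501 transcripts counted by unique molecular identifiers (UMIs), with a range of 1013 to 51680, and a median of 1960 detected genes. Summed over a mouse, pericytes held between 12945 UMIs in C2 and 119132 in D5 among CS mice, and between 32035 in M3 and 1100780 in F1 among RA mice. A count of 3 UMIs in that sum corresponds to 2.32 transcripts per 10,000 in C2 and to 0.0273 in F1, so low values in C2, D2, M1 and M3 rest on very few molecules. The labelled sex did not match the sex-linked transcripts in any of the 4 CS libraries. Of the CS mice labelled male, C2 had Xist in 3 of 3 pericytes and C5 in 8 of 10, with Ddx3y in 0. Of those labelled female, D2 had the Y-linked Ddx3y in 5 of 10 pericytes and D5 in 10 of 22. The RA libraries matched, with Xist in 97 of 126 pericytes of F1 and 74 of 84 of F3, both labelled female, and in 0 in M1 and M3. Exposure groups were taken from the labels as given, and no comparison of exposures is left without these 4 libraries. No cell barcode occurred in more than 1 pericyte, while 394 cells of the whole series had a barcode that was also seen in another library.

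The 3 genes used to check the label were all higher in pericytes than in each of the 30 other cell types with at least 50 cells. Levels are means over the cells of a mouse after scaling each cell to 10,000 transcripts, averaged over the 8 mice (± SD). Since the cells were clustered on their expression and named from markers, the levels describe the label and no test was made. Cox4i2, which encodes a cytochrome c oxidase subunit isoform known from pericytes and lung, stood at 28.6 ± 8.45 transcripts per 10,000, against 2.58 in smooth muscle cells, the next type. In C2, C5, D2 and D5 its level was 41.1, 21.3, 38.8 and 18.3, and in F1, F3, M1 and M3 it was 24.2, 22.4, 33.4 and 29.2. Every mouse was thus well above smooth muscle, and the exposure groups overlapped. Pdgfrb was at 17.2 ± 8.04 against 3.72 in smooth muscle cells, with 34.0, 15.4, 19.1 and 19.9 in the CS mice and 6.67, 11.5, 17.3 and 13.6 in the RA mice. The lowest values belonged to F1 and F3. Cspg4, which encodes the NG2 proteoglycan of mural cells, was less distinct at 2.23 ± 1.12 against 1.41 in smooth muscle cells, with 4.10, 0.666, 3.47 and 1.72 in the CS mice and 1.38, 2.21, 1.78 and 2.53 in the RA mice. In C5 and M1 it was lower than in smooth muscle cells of the same mouse (1.44 and 2.12). Of the 272 cells, 129 held transcripts of all 3 genes, 128 of 2, 12 of 1 and 3 of none. On mouse genome build GRCm38 these protein-coding genes lie on chromosome 2 at 152754173 to 152765037 (Cox4i2), chromosome 18 at 61045150 to 61085061 (Pdgfrb) and chromosome 9 at 56865033 to 56899870 (Cspg4).

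**Figure D1:**
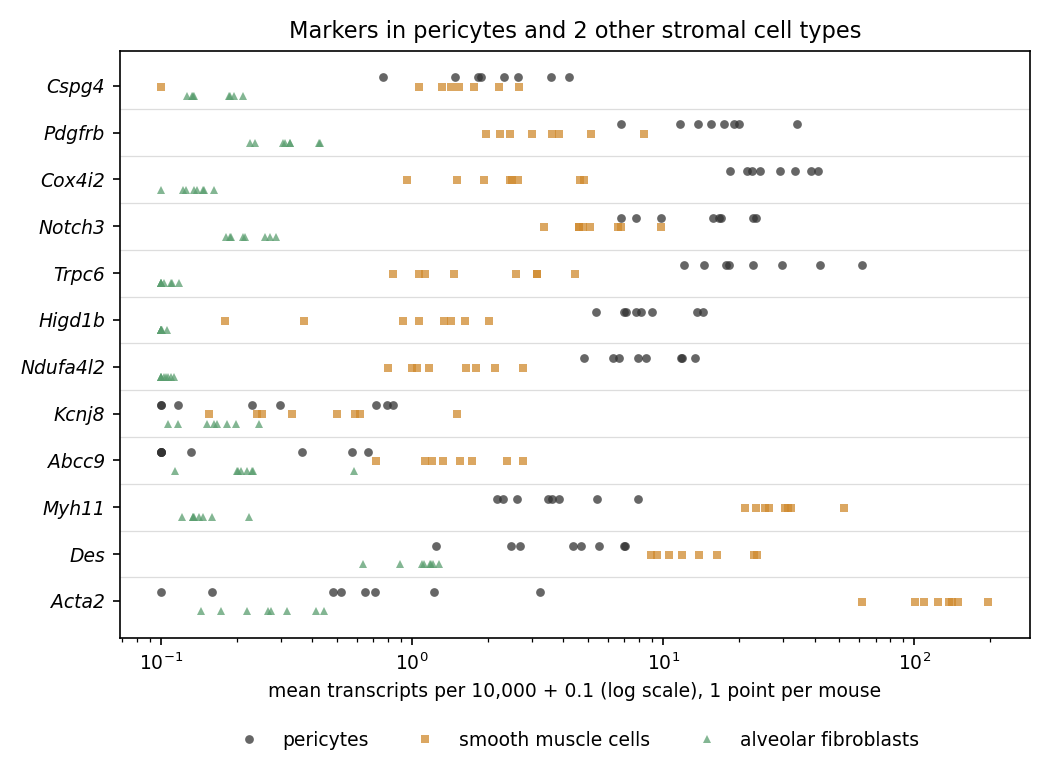
Mean transcripts per 10,000 cell transcripts plus 0.1 on a log axis for 12 marker genes, 1 point per mouse, in pericytes (circles), smooth muscle cells (squares) and alveolar fibroblasts (triangles). Cox4i2, Trpc6, Higd1b and Ndufa4l2 separate pericytes from both other types in every mouse, while Kcnj8 and Abcc9 are low in pericytes and Acta2 is high in smooth muscle cells only among the 3 types.

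Of 2126 genes at 1 or more per 10,000 in pericytes, 371 were higher there than in any other cell type, 123 by at least 2-fold and 53 by at least 4-fold. Ranked by the ratio to the next type after 0.1 was added to both levels, which holds back genes near 0, Cox4i2 took rank 11, Pdgfrb 38 and Cspg4 172. First by this measure was Adcy8, which encodes a calcium-stimulated adenylyl cyclase, at 26.4 ± 17.5 against 0.251 in pulmonary neuroendocrine cells. Its levels were 63.2, 25, 24.0 and 38.3 in the CS mice and 13.7, 18.4, 21.9 and 6.53 in the RA mice. Pdzd2, which encodes a large PDZ domain protein, had the smallest SD relative to its mean among the 15 genes ranked highest, at 106 ± 18.4 against 5.05 in alveolar fibroblasts, with a range of 87.7 to 133. Trpc6, a receptor-operated cation channel, was at 27.3 ± 17.0 against 2.12 in smooth muscle cells. Spp1, which encodes osteopontin, was at 72.1 ± 57.7 against 6.03 in alveolar macrophages. Its level was 203 in F1 and between 14.1 and 97.4 in the other 7 mice. Agtr1a, the angiotensin II type 1 receptor, was at 3.88 ± 1.27 against 0.243, and Vtn, the matrix protein vitronectin, at 4.07 ± 1.79 against 0.299. The remaining genes of these 15 besides Cox4i2 were Fam162b (3.77), Tmem200a (4.75), Pcdh18 (4.55), Wfdc8 (3.01), Cstdc2 (2.89), C030034L19Rik (2.45), 4930542D17Rik (1.01) and Mettl21e (1.0). The last pair lay on the limit of 1 per 10,000 and was at 0 in at least 1 mouse.

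Of 18 genes for vasoactive receptors and cyclic nucleotide signalling, 7 were highest in pericytes, and 8 reached 1 or more per 10,000. Of the 2126 genes at that level in pericytes, 371 were highest there. No list was tested against this share. The subunits of soluble guanylyl cyclase, the receptor for nitric oxide, stood at 34.5 ± 9.57 (Gucy1a1, smooth muscle 5.73) and 26.1 ± 8.14 (Gucy1b1, smooth muscle 4.16). Pde5a, which breaks down cyclic GMP, was at 37.4 ± 12.6 against 4.56 in smooth muscle cells. Prkg1, the cyclic GMP-dependent kinase, was at 81.1 ± 28.2, but arterial endothelial cells were close behind at 74.5. Ednra, the endothelin A receptor, reached 5.43 ± 2.66 against 3.51 in alveolar fibroblasts, a difference within the spread over mice. Among ion channel genes, Trpc6 and the potassium channel gene Kcnk3 (5.79 ± 1.38, smooth muscle 2.08) were highest in pericytes. The L-type calcium channel gene Cacna1c was at 24.0 ± 11.2 and at 28.0 in smooth muscle cells.

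Signalling and matrix genes gave a mixed picture, and of 13 TGF-beta pathway genes 0 were highest in pericytes. Of 14 Notch pathway genes, Notch3 (14.8 ± 6.35, smooth muscle 5.59), its target Heyl (2.16 ± 0.922, smooth muscle 1.85) and Nrarp (1.58 ± 0.232, arterial endothelium 1.43) were highest in pericytes, although only Notch3 stood clear of the next type. Angpt1, the ligand of the endothelial receptor Tie2, was at 11.9 ± 4.81, close to alveolar fibroblasts at 10.7. Of 6 PDGF pathway genes only the receptor gene Pdgfrb was highest there, and the ligand gene Pdgfb was at 0.267 against 3.67 in capillary A endothelial cells. Without the pericytes that held endothelial transcripts, described below, Pdgfb was at 0.0137, and its detection was 0.575% in place of 22.4%. Among 20 basement membrane genes 6 were highest in pericytes, including the type IV collagen genes Col4a1 (11.1 ± 3.74, alveolar type I cells 6.14) and Col4a2 (9.49 ± 3.83, alveolar type I cells 6.88). Among 12 genes for adhesion to endothelium 6 were highest, including the integrin gene Itga1 (17.4 ± 7.06, capillary B endothelium 12.2), the connexin 45 gene Gjc1 (4.33 ± 2.80) and the N-cadherin gene Cdh2 (1.84 ± 0.897). Postn, which encodes the matrix protein periostin, was at 20.3 ± 11.3 against 3.0 in smooth muscle cells. Of 18 transcription factor genes 4 were highest, namely Heyl and the T-box genes Tbx2 (14.7 ± 3.79, capillary A endothelium 8.28), Tbx4 (6.73 ± 2.16) and Tbx5 (6.84 ± 2.53).

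Of 11 genes of respiratory chain isoform pairs, 3 were highest in pericytes. They were the tissue-restricted members Cox4i2, Higd1b (8.96 ± 3.23, smooth muscle 1.02) and Ndufa4l2 (8.80 ± 3.08, smooth muscle 1.44). Higd1b was at 6.90, 8.06, 14.3 and 8.87 in the CS mice and 7.70, 7.03, 13.5 and 5.29 in the RA mice. Ndufa4l2 was at 6.18, 4.74, 13.3 and 7.83 in the CS mice and 6.54, 8.44, 11.7 and 11.7 in the RA mice, so that both genes overlapped between exposures. The widely expressed counterpart Ndufa4, by contrast, was at 0.610 ± 0.445, rank 30 of 31 types, against 2.72 in smooth muscle cells. Higd1a was at 0.598 ± 0.518, rank 18. Cox7a2, Cox6a1 and Cox8a took middle ranks (17, 13 and 20). Cox7a1, Cox6a2 and Cox8b, known from muscle, were near 0 in pericytes, at 0.000324, 0.0115 and 0.000474. Cox4i1 was not analysed here.

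Several genes that mark pericytes in other organs were scarce. Kcnj8 and Abcc9, the subunits of the vascular ATP-sensitive potassium channel, were at 0.299 ± 0.327 and 0.168 ± 0.238, below peribronchial fibroblasts at 2.46 and 2.49. Rgs5, a regulator of G-protein signalling used as a mural cell marker, was at 0.236 ± 0.552, and the integrin gene Itga7 at 0.0826 ± 0.199. The smooth muscle programme was largely missing. None of 12 smooth muscle markers was highest in pericytes, and their summed level was 20.7 against 345 in smooth muscle cells. Acta2, smooth muscle actin, was at 0.785 ± 1.01 against 127, and Tagln at 0.758 ± 0.746 against 74.3. Myh11 (3.81 ± 1.92 against 30.2) and Des (4.28 ± 2.12 against 14.6) were second only to smooth muscle cells among all types. The summed level of 12 fibroblast markers was 7.94 against 106 in alveolar fibroblasts, and Pdgfra was at 0.0199 against 9.69. Immune, mesothelial and glial markers summed to 3.0, 0.267 and 0.0110, with Cd3e, Wt1 and Foxd3 among those at 0. Epithelial markers summed to 24.9, nearly all of it Scgb1a1, the secretoglobin of club cells, which was at 173 in D5, 2.76 in F1, 4.82 in F3 and 0 elsewhere. In all, 14 of the 20 further pericyte markers and 0 of the 12 smooth muscle, 12 fibroblast, 10 endothelial, 10 epithelial, 10 immune, 6 mesothelial and 5 glial markers were highest in pericytes.

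Endothelial transcripts were found in a subset of the pericytes. By the rule of at least 1 transcript of Pecam1, Cdh5 or Cldn5, genes of endothelial cell junctions, 98 of 272 pericytes (36%) were endothelial-positive. The same rule marked 22.8% of smooth muscle cells, 24.7% of alveolar fibroblasts, 34.2% of B cells and 99.0% of capillary B endothelial cells. The genes of the rule differed in this, by detection that also counts values under 1. Pecam1 was detected in 41.2% of pericytes, against 32.2% of smooth muscle cells and 55.5% of B cells. Cldn5 was detected in 37.9% of pericytes, 6.71% of smooth muscle cells, 10.3% of alveolar fibroblasts and 6.34% of B cells. For Cdh5 these shares were 34.9, 4.03, 8.39 and 5.7%. The sum of 10 endothelial markers had a median of 84.7 per 10,000 in the positive pericytes and 0 in the other 174, and the mean of this sum in capillary B endothelial cells was 105. It was over 40 in 91 pericytes, between 10 and 40 in 7 and at most 10 in 174, which were not wholly the 174 cells negative by the rule, and in 20 pericytes the highest of the 3 values lay between 0.5 and 1. The 3 genes of the rule are among these 10 markers, so the contrast in the sum follows in part from the rule. Cldn5, one of them, was at 19.5 per 10,000 in the positive cells and 0.114 in the others, near its level of 18.3 in capillary B endothelial cells. Gpihbp1, the lipoprotein lipase anchor of capillary B cells, was at 9.84 and 0.0662, against 12.3 in capillary B and 0.545 in capillary A cells. Ednrb, high in capillary A cells at 15.6, was at only 0.638 in the positive pericytes.

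Endothelial-positive pericytes held a median of 15236 UMIs and the others 2779. Counted per barcode, pericyte genes had means of 4.46 and 4.27 UMIs for Pdgfrb, 7.34 and 6.97 for Trpc6, 13.9 and 9.72 for Cox4i2, 4.81 and 3.32 for Higd1b, 4.99 and 3.14 for Ndufa4l2 and 50.6 and 37.5 for Pdzd2 in the positive and the other cells. Each of these was at least as high in the positive cells. Scaled to 10,000 they were lower in the positive cells, at 3.37 and 15.2 for Pdgfrb and 9.99 and 32.4 for Cox4i2. The study set multiplets apart in its own annotation, no doublet caller was run here, and the part of barcodes holding more than 1 cell was not tested. The 3 pericytes with none of the 3 markers were all endothelial-positive, with a median of 1431 UMIs. By mouse the positive cells numbered 60 of 126 in F1 (47.6%), 32 of 84 in F3 (38.1%), 3 of 10 in C5, 2 of 22 in D5 and 1 of 4 in M3, and none were found in C2, D2 and M1. They made up 41.0% of RA and 11.1% of CS pericytes. The shares and gene differences by exposure are therefore also given without them. Among the 174 cells left, Cox4i2 was detected in 97.1% (exact 95% binomial interval 93.4 to 99.1), Pdgfrb in 94.8%, Trpc6 in 93.1%, Notch3 in 89.7%, Ndufa4l2 in 86.2%, Higd1b in 83.9%, Cspg4 in 46.0% and Acta2 in 9.77%. In B cells, which should lack them and held a median of 4055 UMIs, Cox4i2 was detected in 0.300% and Pdgfrb in 0.386%. In smooth muscle cells, with a median of 5805 UMIs, Cox4i2 was detected in 32.9%, Pdgfrb in 66.4%, Notch3 in 75.8% and Cspg4 in 53.0%, the last above its share in pericytes. The mean levels without the positive cells were 32.5 ± 6.84 for Cox4i2, 19.3 ± 6.87 for Pdgfrb and 2.54 ± 1.10 for Cspg4. Binomial intervals cover counting error only.

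**Figure D2:**
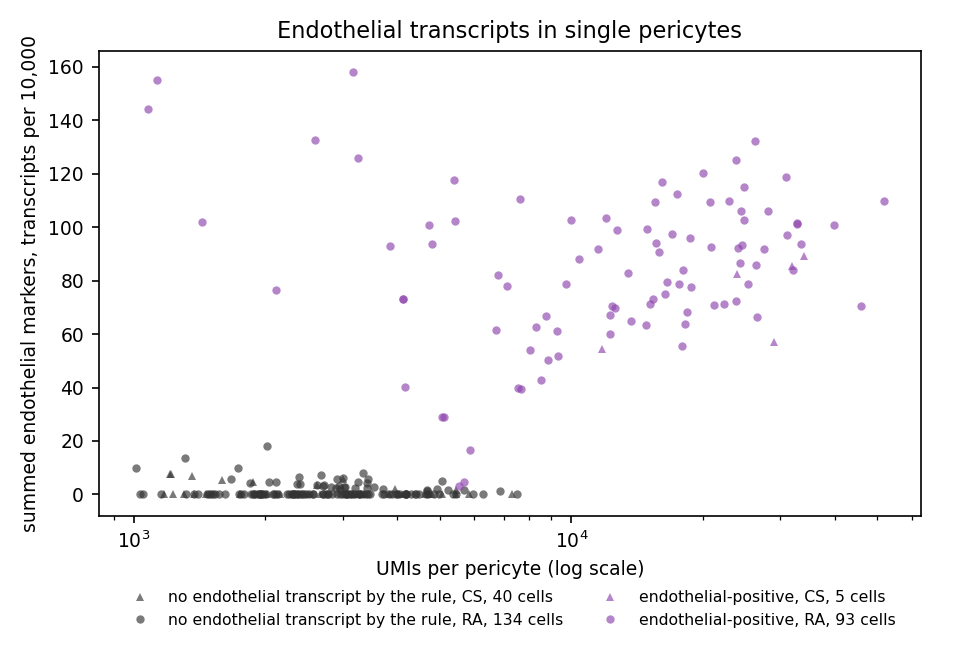
Summed level of 10 endothelial markers (transcripts per 10,000) against UMIs on a log axis, 1 point per pericyte, with triangles for CS, circles for RA and purple for the 98 endothelial-positive cells. The positive cells lie mostly above 40 per 10,000 and reach 51680 UMIs, while the other 174 lie at or under 18 and reach 7496.

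Pericytes were compared between exposures as a share of stromal cells, that is, of fibroblasts, smooth muscle cells and pericytes. The share was 1.5% (exact 95% interval 0.310 to 4.32) in C2, 1.43% (0.686 to 2.61) in C5, 3.08% (1.49 to 5.59) in D2 and 4.92% (3.11 to 7.36) in D5. It was 11.3% (9.49 to 13.3) in F1, 11.2% (9.04 to 13.7) in F3, 3.30% (1.77 to 5.58) in M1 and 2.53% (0.694 to 6.35) in M3. F1 and F3, the RA mice labelled female, stood apart, and M1 and M3, the RA mice labelled male, lay among the CS mice. Among the CS mice, C2 and C5, labelled male but with Xist transcripts, had the lowest shares. Sex was not tested. CS mice averaged 2.73 ± 1.65% and RA mice 7.08 ± 4.82% (SD, n = 4 mice each). The difference of -4.35 percentage points was within what an exact two-sided permutation test over mice allows (p = 0.20, smallest possible 0.0286). Without the endothelial-positive cells the shares were 1.5, 1.0, 3.08 and 4.49% in the CS mice and 6.25, 7.25, 3.30 and 1.91% in the RA mice, again with an exact p of 0.20. Compared within the sequencing lane, the CS mouse was lower in lanes 1, 2 and 3 and higher in lane 4 (D5 at 4.92% and M3 at 2.53%). In the same denominator smooth muscle cells were 3.58 to 7.5% in CS and 2.14 to 2.79% in RA mice, and their part in the pericyte share was not tested.

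**Figure D3:**
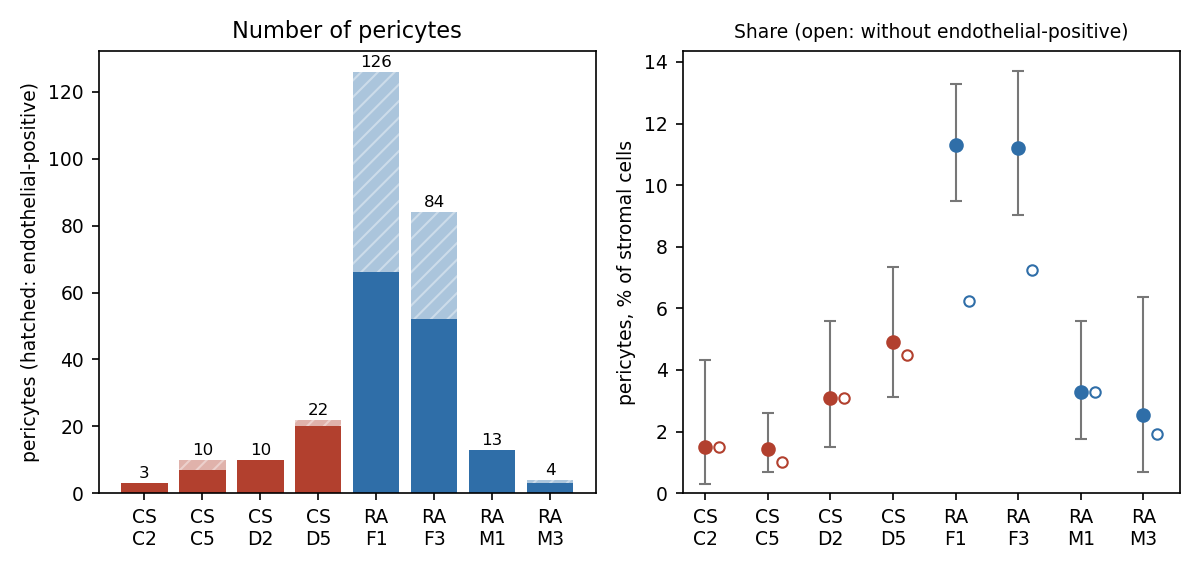
Left, number of pericytes per mouse, with the endothelial-positive cells hatched. Right, pericytes as a percent of stromal cells per mouse with exact 95% binomial intervals (filled), and the same without endothelial-positive cells (open); F1 and F3 lie at 11.3 and 11.2%, above the other 6 mice.

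Depth and mitochondrial content, measured in the 6 mice with at least 5 pericytes, did not pass a test. The median UMIs per pericyte averaged 3046 ± 594 in CS and 3721 ± 297 in RA mice (n = 3 each, exact permutation p = 0.30, where 0.10 is the smallest possible). In the endothelial-negative cells the averages were 2831 and 2945. Mitochondrial transcripts were 1.76 ± 0.536% in CS and 1.57 ± 0.450% in RA (exact permutation p = 0.60), and the direction turned without the endothelial-positive cells (1.29 and 1.35%).

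Gene levels by exposure were tested in the 6 mice with at least 10 pericytes, C5, D2 and D5 against F1, F3 and M1, since only D5 among the CS mice had the 20 pericytes first asked for. C2 and M3 are given as values beside the fit. Of 8812 genes detected in at least 10% of the pericytes of either group, limma called 3 (0.034%) at an adjusted p under 0.05, all lower in CS, and 704 had an unadjusted p under 0.05. With C2 and M3 in the fit 19 genes were called (0.216%; 1 higher, 18 lower or 0.204%), and with the lane as a block as well 38 (0.431%; 4 higher or 0.0454%, 34 lower or 0.386%). The study's kind of test, a Wilcoxon test over cells, called 74 (0.84%), 39 of them higher, although cells are not replicates. P-values measure the spread between these mice only. The called genes were Fosb, Fos and Cdkn1a.

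Fosb encodes an immediate-early transcription factor of the AP-1 family that is transcribed within minutes of a stimulus. Its level was 0, 0.612, 0.162 and 0.997 per 10,000 in C2, C5, D2 and D5 and 6.80, 6.09, 6.43 and 4.85 in F1, F3, M1 and M3. The groups did not overlap, and CS was lower in each of the 4 lanes. The mean over the 6 fitted mice was 0.590 ± 0.418 in CS and 6.44 ± 0.356 in RA, and the fitted difference was -2.26 ± 0.29 (SE) on the log2(level + 1) scale, which understates low genes (limma, adjusted p = 0.00322). The values of C2 and D2 lie below the 3-count levels of those mice, 2.32 and 0.993. Without the endothelial-positive cells Fosb was at 0, 0.370, 0.162 and 0 in the CS mice and 6.36, 5.47, 6.43 and 5.42 in the RA mice, and the difference was -2.60 (adjusted p = 2.71e-05). Among the endothelial-negative cells, pooled over mice, a Fosb transcript was found in 2 of 40 CS cells (5.0%) and 62 of 134 RA cells (46.3%). In these cells Fosb thus passed the 10% filter on genes through the RA group alone. Median depth was 2837 and 2779 UMIs, and 15.6% of B cells had the transcript. Of the 134 RA cells F1 and F3 gave 66 and 52, and of the 40 CS cells D5 gave 20. The pooled shares therefore describe cells of few mice and are not replicates of the exposure.

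Fos, the founding AP-1 gene, was at 1.15, 1.48, 0 and 1.15 in the CS mice and 10.5, 9.45, 4.42 and 0.719 in the RA mice. The 6 fitted mice did not overlap, but M3, with 4 pericytes, lay among the CS mice. The fitted difference was -2.31 ± 0.37 (adjusted p = 0.0304), and -2.12 (adjusted p = 0.00663) without the endothelial-positive cells. Pooled over mice in the same way, Fos transcripts were found in 10.0% of CS and 37.3% of RA pericytes left, and in 23.5% of B cells. Cdkn1a encodes p21, an inhibitor of cyclin-dependent kinases induced by p53 and by growth arrest. It was at 0, 0.0836, 0 and 0.677 in the CS mice and 7.90, 4.28, 1.97 and 2.89 in the RA mice, with no overlap. The values of C2, C5 and D2 lie below the 3-count levels of those mice, 2.32, 0.335 and 0.993. The level of C2 is itself above the value of M1, so the lack of overlap with C2 says little. The fitted difference was -2.09 ± 0.36 (adjusted p = 0.0421), and -1.68 (adjusted p = 0.0224) without the endothelial-positive cells. Pooled over mice, endothelial-positive pericytes had the higher levels of both genes, 14.7 against 4.47 for Fos and 10.6 against 2.13 for Cdkn1a, and of Fosb, 7.07 against 4.64. Of the 98 positive cells 93 were RA, while 40 of the 174 others were CS, so this contrast also holds the exposure. Over the endothelial-negative cells, pooled over mice, a Cdkn1a transcript was found in 1 of 40 CS (2.50%) and 45 of 134 RA pericytes left (33.6%). It was found in 9.25% of B cells. Cdkn1a too thus passed the 10% filter in the pericytes left through the RA group alone. All 3 calls were lost without D2, without D5, when counts were summed over cells and when genes were not filtered. Fosb then had an adjusted p of 0.113, 0.0505, 0.929 and 0.697. Leaving out C5 ended the calls of Fos (0.0657) and Cdkn1a (0.203), and leaving out F1 that of Cdkn1a (0.0969).

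The promoters of the AP-1 pair are shown because the called genes include both, from RefSeq on GRCm38.p6, the 250 bases upstream of the start site, 5′ to 3′ on the gene's strand. Capitals mark TGACG, the core of the cAMP response element, searched on both strands.
Fosb, chr7:19310046-19310295, minus strand: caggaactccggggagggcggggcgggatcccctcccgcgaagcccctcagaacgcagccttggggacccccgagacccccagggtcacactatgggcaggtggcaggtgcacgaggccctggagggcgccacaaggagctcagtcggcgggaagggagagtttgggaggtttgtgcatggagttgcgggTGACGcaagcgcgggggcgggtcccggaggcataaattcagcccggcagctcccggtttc
Fos, chr12:85473640-85473889, plus strand: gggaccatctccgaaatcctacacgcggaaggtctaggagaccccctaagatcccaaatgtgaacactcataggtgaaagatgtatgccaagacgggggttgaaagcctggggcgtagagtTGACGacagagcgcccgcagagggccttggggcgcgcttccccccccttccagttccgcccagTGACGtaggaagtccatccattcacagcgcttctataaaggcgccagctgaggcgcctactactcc
The motif begins at position -60 in Fosb and at -129 and -66 in Fos, counted from the start site. It occurs in 5836 of 32851 promoter windows of this length (17.8%), among them Btg2, Klf4, Trpc6, Immp2l, Notch3 and 1 of the Nudt3 windows, and in none of the Jun and Cdkn1a windows. Fos also holds a TATAAA box, found in 12.4% of windows. The protein-coding genes themselves span chromosome 7 at 19302696 to 19310051 (Fosb), chromosome 12 at 85473890 to 85477273 (Fos) and chromosome 17 at 29090976 to 29100727 (Cdkn1a).

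The next genes by p among those without overlap did not pass the test. Jun, the AP-1 partner of Fos, was at 0.953, 2.88, 3.48 and 4.51 in the CS mice and 18.8, 15, 10.7 and 12.6 in the RA mice (-1.76, adjusted p = 0.0536). It passed with the lane as a block over all 8 mice (adjusted p = 1.05e-05) and without the endothelial-positive cells (-1.55, adjusted p = 0.0256). Hsp90ab1, a cytosolic chaperone, was at 3.18, 7.07, 5.31 and 5.95 in the CS mice and 25.7, 18.7, 14.9 and 16.8 in the RA mice (-1.52, adjusted p = 0.166). It passed with that block as well (adjusted p = 0.00118). Without the endothelial-positive cells it passed too (adjusted p = 0.0343), as did Id1, a BMP target (-1.57, adjusted p = 0.0343), and Hspa5, the main chaperone of the endoplasmic reticulum (-1.5, adjusted p = 0.0403), so that 7 of 6224 genes (0.112%) were called, all lower, of which Fosb and Cdkn1a passed the filter on genes through the RA group alone. In the other direction the smallest p belonged to Angpt2, the angiopoietin that counters Angpt1 at the Tie2 receptor. It was at 1.44, 3.53, 3.11 and 3.48 in the CS mice and 0.244, 0.900, 1.07 and 0.139 in the RA mice. These groups did not overlap, but the fitted difference of 1.36 ± 0.29 was not called (adjusted p = 0.166). It was called with the lane as a block over all 8 mice (1.30, adjusted p = 0.0226), with mice weighted by cells (0.0400) and with all mice but no endothelial-positive cells (0.0159), and in the other alternatives its adjusted p ran from 0.0550 upwards. Of the pericytes left, pooled over mice, 20 of 40 CS cells and 23 of 134 RA cells (17.2%) held an Angpt2 transcript, with 0.771% of B cells. The other genes on the higher side were Nrep, Inpp4b, Immp2l and Nudt3, with differences of 0.89 to 1.28 and adjusted p from 0.306 to 0.615. Immp2l was called when C2 and M3 were added (1.45, adjusted p = 0.0222), also with the lane as a block (0.00748) and without the endothelial-positive cells of all 8 mice (0.00788), but not without those cells in the 6 fitted mice (0.380). Its level was 6.22 in C2 and 0 in M3, from 3 and 4 pericytes, where 3 counts amount to 2.32 and 0.936.

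**Figure D4:**
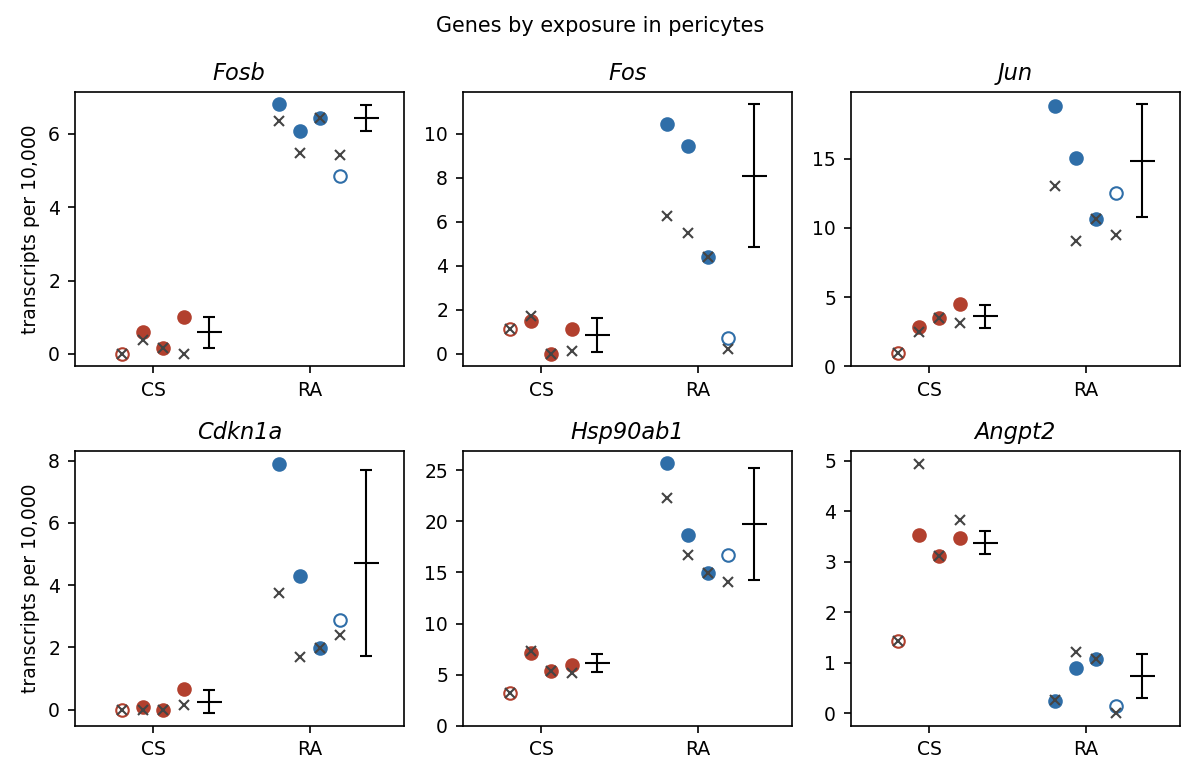
Level of 6 genes in pericytes (transcripts per 10,000), 1 circle per mouse, filled for mice with at least 10 pericytes and open for C2 and M3, with crosses for the same mouse without endothelial-positive cells and black bars for the mean ± SD of the 3 fitted mice. For Fosb, Jun, Cdkn1a and Hsp90ab1 all 4 CS mice lie below all 4 RA mice, for Angpt2 above, and for Fos mouse M3 lies among the CS mice.

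Of 14 listed immediate-early genes all were tested. The differences of all 14 were below 0 with a median of -1.43 against -0.04 over all genes, 2 were called (0.034% of all genes were), or 8 with all 8 mice (0.216% of all genes) and 3 in the endothelial-negative cells of the 6 mice (0.112%), and 13 had an unadjusted p under 0.05, as did 5.34% of all genes in this direction. The 3 called in the endothelial-negative cells were Fos, Fosb and Jun. There Fosb passed the filter on genes through the RA group alone, and Fos, in 10.0% of CS cells, lay on its limit. In 11 of the 14 genes the fitted CS mice lay below every fitted RA mouse, as did 9.28% of all genes, and in 9 all 4 CS mice lay below all 4 RA mice, as did 3.69% of all genes. Their summed level was 9.21, 36.5, 17.8 and 24.8 in the CS mice and 117, 90.6, 66.7 and 80.7 in the RA mice. Without the endothelial-positive cells it was 9.21, 38.4, 17.8 and 14.6 against 68.6, 57.5, 66.7 and 70.7, the median difference was -0.98, and 9 did not overlap, as did 8.43% of all genes. Of 16 chaperone genes limma called 0, against 0.034% of all genes. With all 8 mice it called 5 lower, as it did 0.204% of all genes. In the endothelial-negative cells of the 6 mice it called 2 lower, as it did 0.112% of all genes. An unadjusted p under 0.05 was reached by 11, all lower in CS, as by 5.34% of all genes in this direction. A Wilcoxon test over cells, which are not replicates, called 7 lower, as it did 0.397% of all genes. Without the endothelial-positive cells that test called 9 genes lower over all genes, where it had called 35. The differences of all 16 were below 0 with a median of -1.09, and 9 lay lower without overlap (9.28% of all genes did), or 5 in the endothelial-negative cells (8.43% of all genes did). Their sum was 24.2, 63.4, 27.8 and 34.1 in the CS mice and 118, 81.9, 103 and 88.8 in the RA mice. In the endothelial-negative cells it was 24.2, 75.5, 27.8 and 31.8 against 120, 79.8, 103 and 83.4. Both lists were drawn up after the same genes had been seen to move in other cell types of these mice, so their direction is no independent evidence.

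Of the further pericyte markers, 16 were tested and limma called 0, while 3 had an unadjusted p under 0.05 and were higher, as did 2.64% of all genes. The Wilcoxon test over cells, which are not replicates, called 5 higher, as it did 0.443% of all genes. Without the endothelial-positive cells that test called 6 genes higher over all genes, where it had called 39. Its calls in this list without them are not given. Of the 16 differences 11 were above 0 and 5 below, with a median of 0.41. In 5 of them, Notch3, Postn, Tbx2, Ednra and Pde5a, the fitted CS mice lay above every fitted RA mouse (5.22% of all genes did), and in Kcnk3 below. Over all 8 mice 3 lay higher without overlap, as did 1.78% of all genes. Notch3 was at 22.6, 16.8, 23.2 and 16.5 in the CS mice and 6.67, 7.66, 15.6 and 9.70 in the RA mice, a difference of 0.93 ± 0.34 with an adjusted p of 0.615. The summed level of the 20 markers was 356, 222, 309 and 264 against 134, 181, 245 and 183. Without the endothelial-positive cells it was 356, 280, 309 and 288 against 197, 244, 245 and 208, the median difference was 0.21, and 3 lay higher without overlap, as did 4.94% of all genes. The 3 given markers had differences of -0.08 (Cox4i2), 0.66 (Pdgfrb) and -0.02 (Cspg4). Limma called 0 of them, 0 had an unadjusted p under 0.05, and the Wilcoxon test over cells called 1. Adcy8, whose levels did not overlap between the exposures, had a difference of 0.66 (adjusted p = 0.622) in the 6 mice and 1.27 (adjusted p = 0.0951) in all 8, and it was called when the lane was added as a block. The aryl hydrocarbon receptor targets (2 of 5 tested), NRF2 targets (5 of 10), chemokines and cytokines (3 of 14), clock genes (11 of 13), contractile genes (16 of 18), basement membrane genes (15 of 20) and VEGF genes (9 of 10) held no called gene by limma, with 0, 0, 1, 1, 0, 0 and 1 genes at an unadjusted p under 0.05. Of all genes, 2.64% had such a p with a higher and 5.34% with a lower level in CS, and 0.034% were called. The Wilcoxon test over cells called 1 of these listed genes, lower and among the chemokines and cytokines, as it did 0.397% of all genes.

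The change was compared with that of smooth muscle cells and alveolar fibroblasts of the same 6 mice by testing the difference of the differences. Of 8812 genes, 1 was called in each comparison (0.0113%), and it was Fosb both times, lower by 2.93 ± 0.33 relative to smooth muscle cells (limma, adjusted p = 0.0349) and by 2.45 ± 0.25 relative to alveolar fibroblasts (adjusted p = 0.0253). In smooth muscle cells Fosb was at 12.3, 12.8 and 13.4 in C5, D2 and D5 and at 6.03, 6.67 and 11.2 in F1, F3 and M1. In alveolar fibroblasts it was at 17.7, 11.2 and 12.6 against 11.6, 10.1 and 14. Neither type thus had a low level in CS. In smooth muscle cells each of these CS mice lay above each of the RA mice. The difference of 2.93 therefore also holds that higher level, since the change in pericytes alone was -2.26. Cdkn1a did not pass in either comparison (adjusted p = 0.484 and 0.0793), nor did Fos (0.489 and 0.311). The summed immediate-early genes were 155 to 190 in CS and 123 to 204 in RA smooth muscle cells, with a median difference of -0.03, and 146 to 193 in CS and 161 to 199.98 in RA alveolar fibroblasts, with a median of -0.13. Both calls were lost with a pseudocount of 0.1, with no filter on genes, with summed counts and with the lane as a block over all 8 mice (-2.70 and -2.58, adjusted p = 0.604 and 0.0708), and leaving out 1 mouse at a time gave between 0 and 2 calls in each. The Fosb call relative to smooth muscle cells was lost without C5, D2, D5, F1 or F3 (adjusted p from 0.0685 to 0.419), and that relative to alveolar fibroblasts without C5, D2, F1, F3 or M1 (0.0851 to 0.233). This comparison was not run without the endothelial-positive cells.

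**Figure D5:**
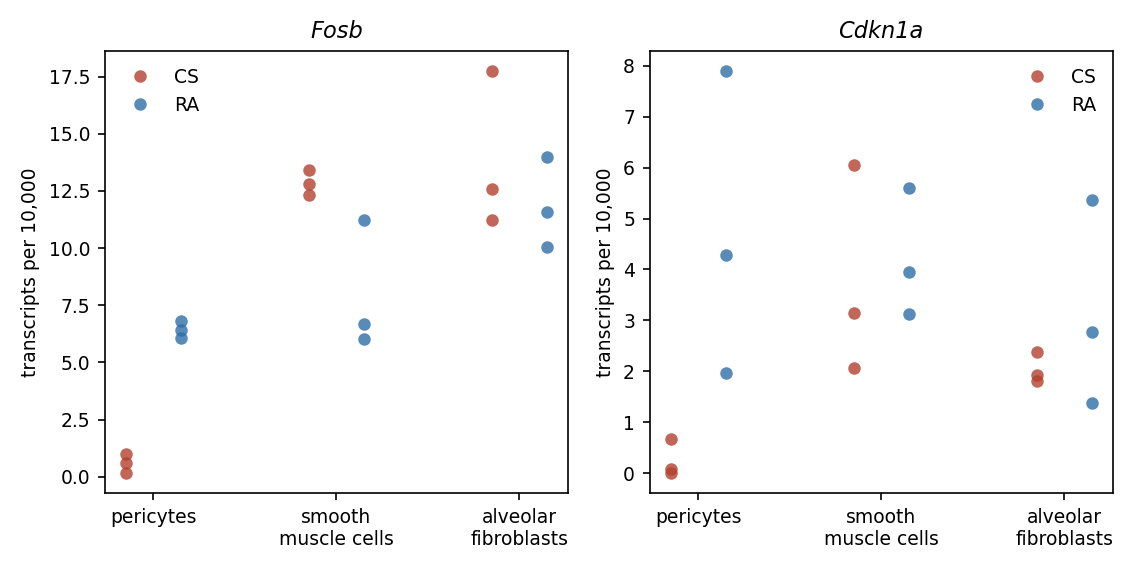
Level of Fosb and Cdkn1a (transcripts per 10,000) in pericytes, smooth muscle cells and alveolar fibroblasts, 1 point for each of the 6 mice with at least 10 pericytes, CS in red and RA in blue. Fosb is at most 0.997 in CS pericytes and at least 11.2 in CS smooth muscle cells and alveolar fibroblasts.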

How the data were processed

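Lungs of 8 mice were profiled with 10x 3' v3 libraries. Per the study's methods and the submitters' processing notes, which also name STARsolo, the authors aligned reads with STAR 2.7.3a to GRCm38.p6 plus reporter sequences, added spliced to unspliced UMIs, corrected for free RNA (SoupX) and assigned Seurat clusters to cell types from markers. The deposited matrix holds the resulting estimated counts, unscaled and not whole; the deposited cell table gives detected gene counts, mitochondrial percent, mouse and cell type. Removal of free RNA can lower transcripts shared by abundant cell types.

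Here each cell was scaled to 10,000 and averaged per mouse, and a pseudocount of 1 was added before log2. No count model was used, since the values are corrected counts. Exposures were compared with limma 3.58.1 (R 4.3.3; Benjamini-Hochberg over all genes in at least 10% of either group's pericytes) and, for single values, by exact permutation of mice (scipy 1.17.1). The fit planned for mice with at least 20 pericytes left 1 CS mouse, and for that case only values had been planned, with no test across genes. A fit at 10 or more pericytes stands in its place, so its calls go beyond that plan. The cell type comparisons, also planned at 20 cells, use the same lower limit. The scripts were tested on simulated data. Members and gene lists were chosen with earlier results of these data known. Genes were named by list, as the 15 with the largest ratio to the next cell type (0.1 added to both levels), and, by exposure, as those called plus the 5 higher and 5 lower non-overlapping genes with the smallest p. Pericytes were not removed by any further filter. A listed gene is not reported here. Alternatives changed the pseudocount, filter, scaling, weights, cells, mice and lane.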

Additional observations from a re-analysis of the deposited data

Results flagged for a closer look

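In 60 groups of 4 mice examined for a value far from the other 3, 2 were found, where chance gives about 1 in 20. Among CS mice, Cdkn1a was at 0.677 per 10,000 in D5 (22 pericytes) and at most 0.0836 in the other 3. In C2 and D2, 3 counts amount to 2.32 and 0.993 per 10,000, above the value of D5, so these mice cannot set D5 apart. Of the 40 endothelial-negative CS pericytes, 1 held a Cdkn1a transcript, and D5 had 2 endothelial-positive pericytes. Their part in its value was not tested. Among RA mice, Immp2l was at 0 in M3 (4 pericytes) and between 1.15 and 1.28 in the other 3.

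The exposure change of Fosb differed between cell types by a test of the difference itself. It was -2.93 on the log2 scale relative to smooth muscle cells and -2.45 relative to alveolar fibroblasts (limma, adjusted p = 0.0349 and 0.0253). With the lane as a block over all 8 mice neither difference passed (-2.70 and -2.58, adjusted p = 0.604 and 0.0708), and the call was lost in 10 of 12 alternatives relative to smooth muscle cells and 9 of 12 relative to alveolar fibroblasts.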

How the results depend on the processing

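The number of genes called by exposure was 3. It was 1 with a pseudocount of 0.1, with a 25% filter and with quantile scaling, 0 with no filter (804 genes at an unadjusted p under 0.05) and with summed counts (426). It was 7 without endothelial-positive pericytes, 15 with mice weighted by cells, 19 with all 8 mice, 38 with all mice and a lane block, and 36 with all mice but no endothelial-positive cells, an alternative chosen after seeing the data. Without pericytes above 5% mitochondrial it was 4. The study's Wilcoxon test over cells, which are not replicates, called 74 (39 higher, 35 lower), or 15 without endothelial-positive cells. Leaving out 1 mouse gave 0 to 5, and 0 without D2 or D5. Fosb was called in 14 of 18 settings, Fos in 10 and Cdkn1a in 9, and no gene named by the exposure rule changed direction. In the settings without endothelial-positive cells, Fosb and Cdkn1a passed the filter on genes through the RA group alone. So did Fosb with the 25% filter, also in the cell type comparisons. These calls of the tally are no further support. The 1 gene that differed from smooth muscle cells fell to 0 with a pseudocount of 0.1, no filter, summed counts, the lane block and all mice (leaving out 1 mouse, 0 to 2). The 1 gene that differed from alveolar fibroblasts became 0 with a pseudocount of 0.1, no filter, summed counts and the lane block, 4 with a 25% filter and 3 with all mice (leaving out 1 mouse, 0 to 2). The difference in mitochondrial percent, 0.189, became -0.0941 with medians and -0.0625 without endothelial-positive cells, and ranged from -0.0477 to 0.490 on leaving out 1 mouse, below 0 without C5 (-0.0243) and without M1 (-0.0477). The causes were not tested. Shares and depth kept their direction in the alternatives run; depth, 3 mice against 3, could not have passed. The mean levels of the 3 given markers, not tested, moved by less than their SD over mice. Fits with at least 20 cells per mouse were not run, since 1 CS mouse reached it. Replicate numbers follow accession order and pair no mice. The lane block sets the CS against the RA mouse of each lane. All 3 genes stayed called under it. Depth limits low genes in C2, D2 and M3, where 3 counts amount to 2.32, 0.993 and 0.936 per 10,000.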

Other observations

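Transcripts of 85 ribosomal protein genes summed to a mean of 244 per 10,000 in pericytes, the fourth lowest of 31 cell types, with 402 in alveolar fibroblasts and 631 in smooth muscle cells. By mouse the sum was 132, 194, 175 and 256 in C2, C5, D2 and D5 and 269, 284, 212 and 429 in F1, F3, M1 and M3. It was 373 in endothelial-positive and 204 in the other pericytes, each pooled over mice. The nuclear RNA Malat1 was at 472 ± 91.9 per 10,000 (SD, n = 8), rank 3 of 31.

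The reporter transcripts were detected in pericytes of every mouse, eGFP at 0.532 to 4.79 and tdTomato at 0.221 to 2.08 per 10,000.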
